A study of Mus musculus with 48 samples.

Results

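Genes for ligands of NKG2D, an activating receptor of natural killer cells, were followed through a map of captured methylated DNA along the mouse intestine. The 5 genes described are Raet1d, Raet1e, H60b, H60c and Ulbp1, all on chromosome 10. Their members in the data were the captured regions that overlapped or lay within 5 kb of these genes, together with every region of the stretch chr10:22149251-22594287 (mm10) around Raet1e, H60b and Raet1d. This gave 41 of the 95882 regions of the series, with 35 in the stretch, 2 at H60c and 4 at Ulbp1. The limits of the stretch were drawn from differences seen earlier in these same data, so the number of its regions that differ is a description and not a test. H60c and Ulbp1 entered by name and lie elsewhere on the chromosome.

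Genomic DNA of the duodenum, jejunum, ileum and colon came from 12 mice, 7 labelled GermFree (raised without microbes) and 5 labelled ConvR (described by the submitters as conventionalised, a word for mice given a microbiota). Each mouse gave 1 library per section, so that 48 libraries formed 8 groups of model and section. The labels name no allele and no further treatment for either model, and strain, sex and age were not given in the sources used here. Fragments were captured by a methyl-CpG-binding domain and sequenced (MBD-seq), and the value at a region is its read count scaled to the effective library size (CPM). Captured DNA depends on its methylation and on the number of its copies in the genome, and these cannot be told apart here.

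NKG2D (gene Klrk1) sits on natural killer cells and on many cytotoxic T cells, including T cells within the gut epithelium. Its ligands are surface proteins related to MHC class I molecules. In the mouse they form the RAE-1 family (Raet1 genes), the H60 family and MULT1 (Ulbp1). They are scarce on most healthy cells and appear on stressed, infected or transformed cells, which the receptor then marks for killing. The Raet1 genes are close copies of each other, the H60 genes are related to each other, and inbred mouse strains carry different sets of both.

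The starts of Raet1e, Raet1d, Ulbp1 and H60c are shown because captured regions lie beside them and not over them, and because those of Raet1e and Raet1d show how alike the copies are. The RefSeq promoter table (GRCm38.p6, the same coordinates as mm10) gave 5 windows for these 4 genes and none for H60b, each from 250 bases before to 50 bases after a transcript start. They are written 5′ to 3′ on the strand of the gene, and capitals mark every CpG, the dinucleotide whose methylation the capture reads.
Raet1e, first start, chr10:22158319-22158618, plus strand: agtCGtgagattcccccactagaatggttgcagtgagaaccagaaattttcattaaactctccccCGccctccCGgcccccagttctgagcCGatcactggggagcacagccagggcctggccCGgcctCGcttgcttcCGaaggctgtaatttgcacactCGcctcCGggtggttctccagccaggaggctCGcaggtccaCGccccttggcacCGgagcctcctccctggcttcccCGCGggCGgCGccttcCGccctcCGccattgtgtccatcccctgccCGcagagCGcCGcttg
Raet1e, second start, chr10:22173247-22173546, plus strand: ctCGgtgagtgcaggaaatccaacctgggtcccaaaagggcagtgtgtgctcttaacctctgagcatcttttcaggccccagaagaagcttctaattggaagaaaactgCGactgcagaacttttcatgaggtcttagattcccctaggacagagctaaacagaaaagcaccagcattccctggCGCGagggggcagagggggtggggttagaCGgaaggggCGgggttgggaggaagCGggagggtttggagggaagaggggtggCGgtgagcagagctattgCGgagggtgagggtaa
Raet1d, chr10:22361644-22361943, plus strand: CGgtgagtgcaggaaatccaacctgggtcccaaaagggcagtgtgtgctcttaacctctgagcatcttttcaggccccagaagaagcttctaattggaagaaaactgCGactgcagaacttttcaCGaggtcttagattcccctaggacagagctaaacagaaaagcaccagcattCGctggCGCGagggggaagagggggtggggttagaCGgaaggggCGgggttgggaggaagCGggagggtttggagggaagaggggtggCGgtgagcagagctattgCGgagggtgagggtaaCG
Ulbp1, chr10:7473428-7473727, minus strand: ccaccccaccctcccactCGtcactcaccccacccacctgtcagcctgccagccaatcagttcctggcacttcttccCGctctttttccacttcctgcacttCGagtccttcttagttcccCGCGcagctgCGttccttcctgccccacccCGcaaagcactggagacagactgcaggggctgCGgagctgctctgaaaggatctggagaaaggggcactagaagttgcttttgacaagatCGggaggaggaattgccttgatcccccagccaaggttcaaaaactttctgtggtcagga
H60c, chr10:3267722-3268021, minus strand: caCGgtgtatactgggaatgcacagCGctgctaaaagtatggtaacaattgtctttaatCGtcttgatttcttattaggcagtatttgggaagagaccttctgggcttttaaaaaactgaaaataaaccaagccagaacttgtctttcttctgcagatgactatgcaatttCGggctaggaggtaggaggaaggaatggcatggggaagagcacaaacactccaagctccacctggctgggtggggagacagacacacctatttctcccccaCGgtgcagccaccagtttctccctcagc

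The window at the second start of Raet1e and that of Raet1d matched at 295 of 298 aligned bases, or 99.0%, with the Raet1d window beginning 2 bases further into the shared sequence. The differences were T128C, C180G and C195A, with positions counted from 1 at the 5′ end of the Raet1e window and the Raet1e base first. Of the 201 stretches of 100 bases in the Raet1d window, 32 stood letter for letter in the Raet1e window, so a read of 100 bases from there has no single place. Among 32851 promoter windows of the table, 4.66% shared such a stretch with another window. How reads with several matching places were treated was not given in the sources used here, and values of single Raet1 genes are uncertain. H60b has no window, so the H60 genes were not compared with each other, and their values may be uncertain too.

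None of the 5 windows overlapped a captured region, against 8.57% of all promoter windows (2816 of 32851). The first Raet1e window, with 21 CpG, began 94 bp after the nearest region, and the Ulbp1 window, with 9 CpG, lay 78 bp from it. The Raet1d window held 12 CpG and lay 486 bp from a region, the second Raet1e window held 9 and lay 1439 bp away, and the H60c window held 5 and lay 10186 bp away. The median promoter window held 7 CpG. At H60b, which has no window here, both ends of the gene (positions 22273474 and 22288849) lie inside captured regions. The regions described next therefore cover gene bodies and the ground between genes at Raet1e, Raet1d, Ulbp1 and H60c, and both ends of the gene at H60b.

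The library totals ran from 1007560 to 3033782 counts with a median of 2122529, and the members held a mean of 7.88 to 208 counts per library. For each gene, the region with the highest mean count over all 48 libraries is described in full. This choice favours regions that are high in GermFree mice, which gave more of the libraries. The first comparison asked whether the ligand regions of GermFree mice held more or less captured DNA than those of ConvR mice, on the counts of the 4 sections of a mouse added together. The mouse is the replicate.

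The ground around Raet1e, H60b and Raet1d held more captured DNA in GermFree mice than in ConvR mice, by 2.55 to 3.87 times at the leading regions of these genes. At the leading region of H60c the ratio was 1.05 and at that of Ulbp1 it was 1.20. At H60b, which encodes an NKG2D ligand of the H60 family, the region chr10:22278837-22288912 covers most of the gene and part of the long noncoding RNA gene Gm26740. GermFree mice 1 to 7 gave 183, 178, 111, 84.0, 181, 150 and 117 CPM there. ConvR mice 1 to 5 gave 38.7, 43.7, 26.7, 43.0 and 33.4 CPM. The groups lay far apart, with the lowest GermFree mouse well above the highest ConvR mouse. The means were 144 ± 39.9 (SD, n = 7) and 37.1 ± 7.13 CPM (SD, n = 5), a log2 difference of 1.95 (SE 0.13, adjusted p = 1.16e-13 in edgeR).

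At Raet1e, which encodes RAE-1ε, the leading region chr10:22149251-22158225 lies before the first start and overlaps the end of E030030I06Rik and the pseudogene Gm4895. The GermFree mice gave 102, 89.8, 73.1, 53.3, 99.8, 84.3 and 67.5 CPM in the order of their numbers. The ConvR mice gave 35.4, 38.0, 25.4, 33.2 and 27.9 CPM. The groups did not overlap. The log2 difference was 1.35 (SE 0.11, adjusted p = 5.66e-12 in edgeR), with means of 81.4 ± 17.8 (SD, n = 7) and 32.0 ± 5.20 CPM (SD, n = 5).

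At Raet1d, which encodes RAE-1δ, the leading region chr10:22355369-22361158 lies before the start of the gene and overlaps no annotated gene. GermFree mice gave 64.3, 57.5, 41.3, 34.8, 58.7, 48.6 and 45.5 CPM. ConvR mice gave 20.6, 21.4, 17.9, 21.4 and 15.6 CPM, all below the lowest GermFree mouse. The log2 difference was 1.37 (SE 0.10, adjusted p = 1.64e-12 in edgeR). Among GermFree mice the ends of the order were as at Raet1e and H60b, with mouse 1 highest and mouse 4 lowest at all 3 regions. The lowest ConvR mouse was mouse 5 here and mouse 3 at Raet1e and H60b.

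H60c, a second gene of the H60 family that encodes a ligand known from skin, lies far from the stretch at chr10:3256202-3268091. Its leading region, chr10:3247409-3251635, lies 4567 bp outside the gene. GermFree mice gave 29.8, 25.4, 28.9, 17.5, 27.5, 22.9 and 31.1 CPM, and ConvR mice gave 22.8, 28.3, 20.9, 28.8 and 24.2 CPM. The groups overlapped over most of their range. The log2 difference was 0.04 (SE 0.09, adjusted p = 0.969 in edgeR). The region inside the gene, chr10:3256575-3257536, differed by 0.27 (SE 0.14, adjusted p = 0.756 in edgeR).

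Ulbp1, which encodes the ligand MULT1, lies at chr10:7444873-7473641. Its leading region, chr10:7461250-7463482 within the gene, gave 18.0, 14.8, 14.2, 13.4, 18.8, 13.6 and 16.6 CPM in GermFree mice. ConvR mice gave 15.9, 13.2, 10.2, 13.0 and 12.8 CPM. The groups overlapped, and the log2 difference of 0.28 (SE 0.09) did not pass (adjusted p = 0.416 in edgeR). The region nearest the start of Ulbp1, chr10:7470759-7473350, gave 15.7, 15.8, 15.3, 13.3, 17.3, 16.8 and 14.1 CPM in GermFree mice and 13.7, 11, 10.2, 12.5 and 11.4 CPM in ConvR mice. Here 6 of 7 GermFree mice lay above every ConvR mouse. The log2 difference of 0.41 (SE 0.09) passed, with an edgeR adjusted p of 0.00446.

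**Figure D1:**
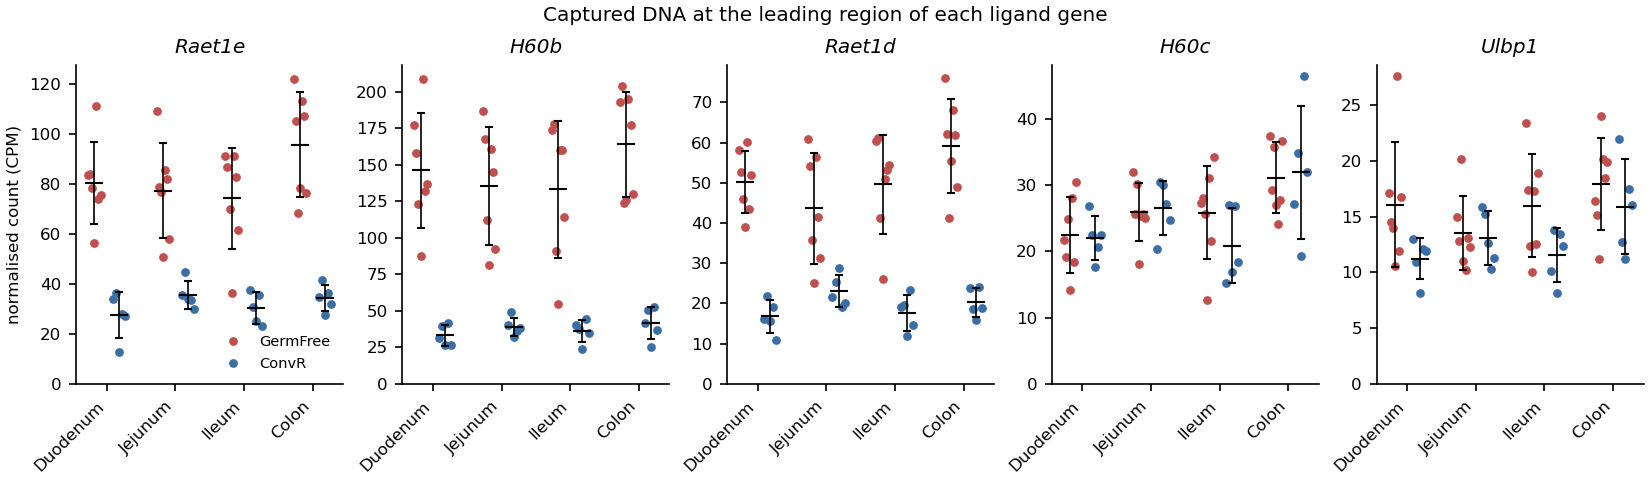
Normalised count (CPM) at the leading region of each ligand gene by section, with 1 point per mouse (7 GermFree, 5 ConvR) and bars for the mean and SD. The scales of the 5 panels differ. GermFree mice lay above ConvR mice at Raet1e, H60b and Raet1d in every section, with overlap at Raet1e in the ileum and Raet1d in the jejunum, and the groups overlapped at H60c and Ulbp1.

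Over all members, 28 of 41 regions passed in the sums and all 28 were higher in GermFree mice, against 0.431% of all regions called and higher. This direction was common in the series, where 413 of 455 calls were higher in GermFree mice. The stretch supplied 27 of these from 35 regions, Ulbp1 supplied 1 of 4, and H60c supplied 0 of 2. An unadjusted p under 0.05 in edgeR was found at all 4 regions of Ulbp1 and at 0 of the 2 of H60c. The 4 regions lie in the same gene and come from the same mice, so they are not separate findings. For this and later counts of such p, the share of all regions is not given here. DESeq2 called 1 region at Ulbp1 and 0 at H60c. The median log2 difference was 1.12 over the members and -0.001 over all regions. Every GermFree mouse lay above every ConvR mouse at 25 of the 41 members, against 0.347% of all regions. All 25 were in the stretch, whose limits were drawn from such differences.

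By gene, all 6 regions of Raet1e passed with log2 differences of 0.98 to 1.4, all 4 of H60b with 1.16 to 1.95, and all 4 of Raet1d with 0.79 to 1.48. The 21 regions of the stretch within 5 kb of no listed gene held 13 calls. These lay over long noncoding RNA genes (Gm26740, Gm51760, C920009B18Rik, Gm34607, Gm34656 and Gm40612), over the pseudogene Gm5421, or outside annotated genes. Their 5 highest log2 differences were 1.44, 1.43, 1.43, 1.4 and 1.4, close to those at Raet1e and Raet1d. At their other end the 5 lowest were -0.31, -0.17, -0.15, -0.12 and -0.11, and none of these passed. The RefSeq table places 16 genes in the stretch, of which 4 encode proteins, 8 are long noncoding RNAs and 4 are pseudogenes.

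The differences were ordered along the chromosome. From its start to position 22398332, all 26 regions passed, with a median log2 difference of 1.35. No region was captured over the next 60882 bp. Beyond it, 1 of 9 regions passed and the median was -0.11. That region, chr10:22591503-22594287 over the noncoding gene Gm40612, closes the stretch by its definition and gave 16.6 ± 3.04 against 8.88 ± 1.74 CPM (SD, n = 7 and 5), a log2 difference of 0.87 (SE 0.11, adjusted p = 4.19e-07 in edgeR). In the 500 kb on each side of the stretch, 0 of 33 and 0 of 20 regions passed, with medians of -0.00 on both sides and a range of -0.30 to 0.24. Of these flanking regions 3 and 0 had an unadjusted p under 0.05 in edgeR, and DESeq2 called 0 on both sides. The region just outside the stretch before Raet1e differed by 0.05 and the region just after it by 0.02 on the log2 scale, neither of them called. The limits of the stretch were drawn from such differences, so its contrast with the flanks is a description and not a test.

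**Figure D2:**
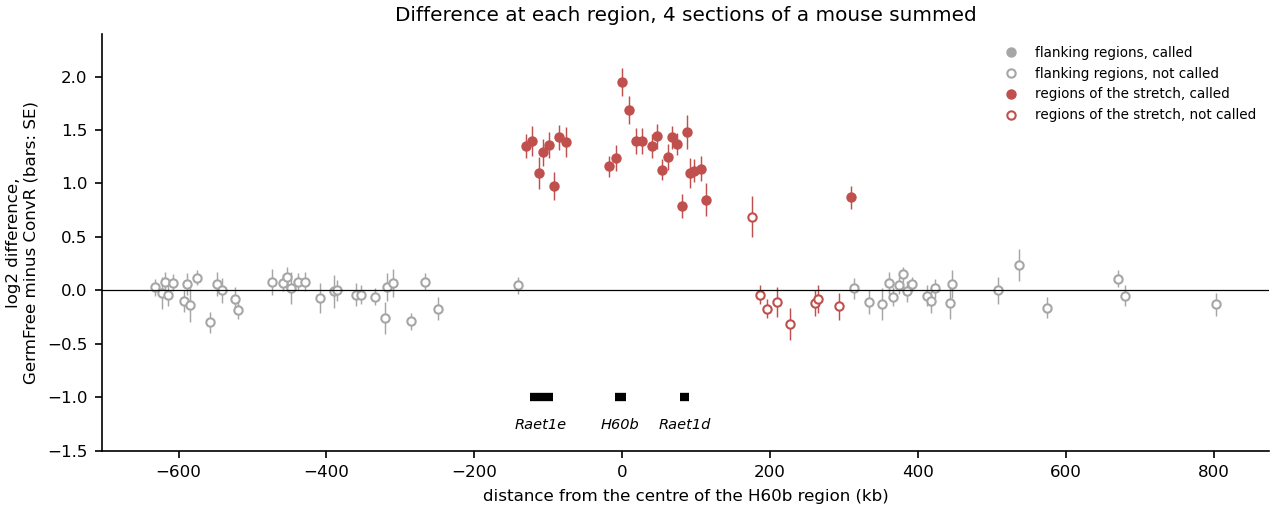
Log2 difference of GermFree minus ConvR mice at each region of the stretch (red) and of the 500 kb on each side (grey), by distance in kb from the centre of the H60b region. Bars are SE, filled points passed the test, and black bars mark the genes. All 26 points before the 60882-bp gap lie between 0.79 and 1.95, and the flanking points lie between -0.30 and 0.24.

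The height of the signal was read as count per kb. In the 27 called regions of the stretch, the normalised count per kb of region was 5.58 to 14.3 CPM per kb in GermFree mice, with a median of 8.65. In ConvR mice it was 2.67 to 4.94, with a median of 3.48. Over all regions of the series the medians were 6.21 and 6.25 CPM per kb. In GermFree mice 24 of the 27 called regions lay above the median of the series, and in ConvR mice all 27 lay below it. Wide regions have lower values, and of the 53267 regions 1 to 11 kb wide, 6625 lay above that median in GermFree mice and 46053 below it in ConvR mice. Against the medians of these wide regions, 5.28 and 5.25 CPM per kb, the 27 called regions lay above in GermFree mice and below in ConvR mice. They were called for the difference between the models, so these counts are a description. The 8 uncalled regions of the stretch had medians of 7.10 and 7.69. At Ulbp1 the medians were 6.51 and 4.80, and at H60c they were 7.21 and 6.30 CPM per kb.

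The regions of the stretch were also wide. Their median width was 3287 bp against 1208 bp over the series, and 9 of 35, or 25.7%, were at least 5 kb wide against 5.22%. The regions of H60b were the widest, with a median of 7764 bp. All region names in the deposited list carry the GermFree label, and how libraries were pooled to call the regions was not given in the sources used here. A region with little captured DNA in GermFree mice may therefore be missing from the list. How this bears on the direction of the calls was not tested.

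**Figure D3:**
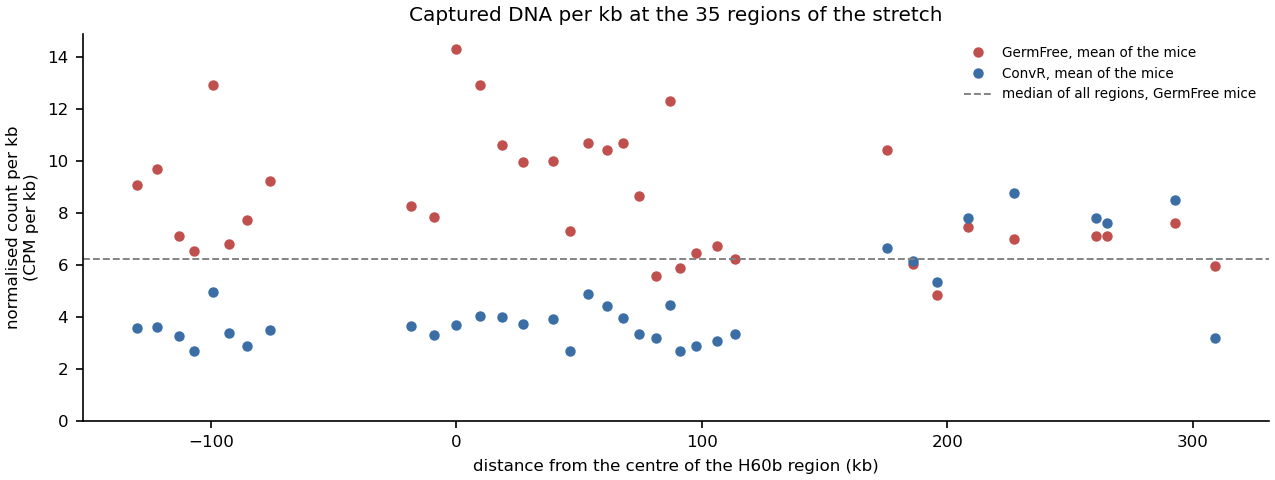
Mean normalised count per kb (CPM per kb) of the 7 GermFree (red) and 5 ConvR (blue) mice at the 35 regions of the stretch, by distance in kb from the centre of the H60b region. The dashed line is the GermFree median over all regions, 6.21 CPM per kb, where that of regions 1 to 11 kb wide is 5.28. At the 27 called regions the ConvR means lie between 2.67 and 4.94, below the line.

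The second question was whether the difference at the ligands was shared by the sections of the intestine. In the duodenum 26 of 40 tested members passed and were higher in GermFree mice, against 0.423% of all regions. In the jejunum 25 of 39 did, against 0.304%, and in the ileum 26 of 40, against 0.316%. In the colon 27 of 39 did, against 0.513%. No member passed in the other direction in any section. Of the 41 members, 22 passed in all 4 sections, all of them in the stretch, and 5 passed in 3 sections. Region chr10:7470759-7473350 of Ulbp1 passed in the ileum alone, and 13 members, including both H60c regions, passed in none. The share of all regions that passed in 3 or 4 sections was not counted. The sections also come from the same mice, so these counts are a description.

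H60b gave 146 ± 39.3 against 33.2 ± 7.18 CPM in the duodenum, a log2 difference of 2.13 (adjusted p = 7.52e-17 in edgeR). In the jejunum it gave 135 ± 40.2 against 39.0 ± 6.43 CPM (log2 difference 1.77, adjusted p = 7.46e-29 in edgeR). The ileum gave 133 ± 47.3 against 36.1 ± 7.79 CPM (1.86, adjusted p = 1.14e-11 in edgeR) and the colon 164 ± 36.1 against 41.5 ± 11.1 CPM (2.0, adjusted p = 4.72e-25 in edgeR). All these are mean and SD over 7 and 5 mice. In edgeR the spread of a region is taken partly from other regions of like count. The mice spread more widely at the stretch than at the median region, so adjusted p there can be too small. In each section all 7 GermFree mice lay above every ConvR mouse.

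Raet1e differed by 1.51, 1.10, 1.30 and 1.48 on the log2 scale from duodenum to colon. The groups overlapped in the ileum alone, where GermFree mouse 4 gave 36.3 CPM and ConvR mouse 1 gave 37.4 CPM. Raet1d differed by 1.58, 0.91, 1.43 and 1.57. Its groups overlapped in the jejunum alone, where GermFree mouse 4 gave 25.2 CPM, below ConvR mice 2 and 3 with 25.3 and 28.8 CPM. Both leading regions passed in all 4 sections in edgeR, but DESeq2 did not call that of Raet1d in the jejunum (0.92, adjusted p = 0.0745).

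Region chr10:22170188-22171808 inside Raet1e did not pass in the duodenum (log2 difference 0.84, adjusted p = 0.175 in edgeR), nor did chr10:22363784-22366823 inside Raet1d in the jejunum (0.55, adjusted p = 0.331 in edgeR). Regions that passed in only 3 sections also included the narrow region chr10:22370830-22371421 inside Raet1d, which is 592 bp wide. Its log2 difference was 2.37 in the duodenum, 1.42 in the jejunum, 0.94 in the ileum and 1.35 in the colon, and the ileum did not pass (adjusted p = 0.429 in edgeR). It held a mean of 11.2 counts per library, few enough for counting error to be large. The closing region of the stretch over Gm40612 differed by 1.11, 0.42, 1.04 and 0.89, and the jejunum did not pass (adjusted p = 0.821 in edgeR).

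At H60c the log2 differences of the leading region were 0.02, -0.06, 0.20 and -0.01 from duodenum to colon. The region inside the gene gave 0.51, -0.26, 0.16 and 0.59, and none of these passed, the smallest adjusted p in edgeR being 0.430 in the colon. At the leading region in the colon no GermFree mouse lay above every ConvR mouse, with 24.1 to 37.4 CPM in GermFree and 19.3 to 46.4 CPM in ConvR mice. At Ulbp1 the differences of all 4 regions were above 0 in every section, from 0.03 to 0.89. The ileum value of the region nearest the start was 15.5 ± 3.71 against 9.19 ± 2.33 CPM, a log2 difference of 0.75 (adjusted p = 0.0421 in edgeR). No other value of a Ulbp1 region in a section passed. DESeq2 called 0 of the 4 regions in the ileum, so this call rests on edgeR.

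**Figure D4:**
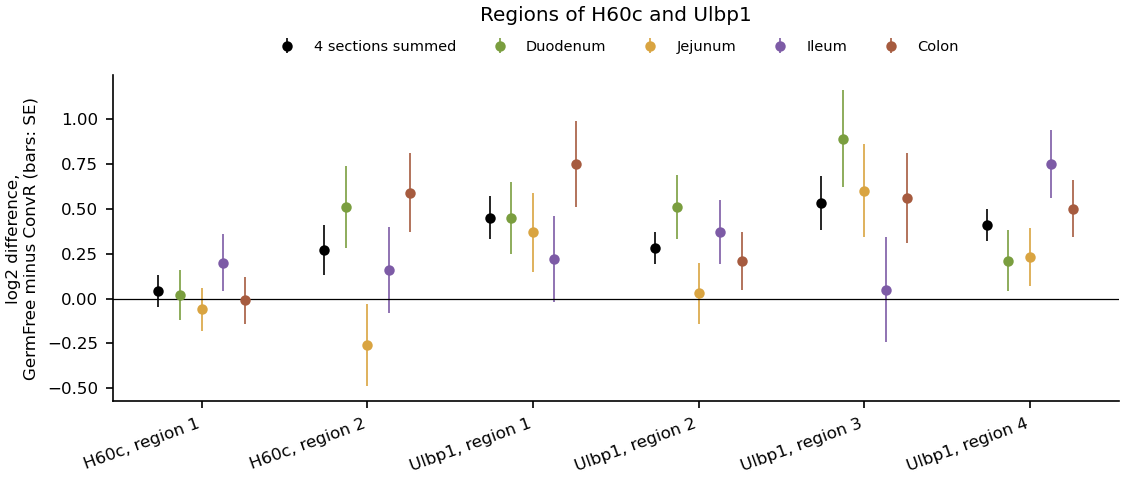
Log2 difference of GermFree minus ConvR mice at the 2 regions of H60c and the 4 regions of Ulbp1, in order along the chromosome, for the sums (black) and for each section (colours). Bars are SE. The Ulbp1 points all lie above 0, between 0.03 and 0.89, while those of the first H60c region lie between -0.06 and 0.20 and those of the second between -0.26 and 0.59, which overlaps the range of Ulbp1.

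A joint test asked whether the difference between the models varied from section to section. It called 0 of the 41 members, and 8 had an unadjusted p under 0.05; over all regions it called 0% too. With the mouse as a block it also called 0 members, the smallest edgeR adjusted p being 0.354, against 0.0136% of all regions. A difference between sections in the size of the effect was therefore not detected, which does not show that the sections are alike.

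The level of captured DNA itself was compared between sections over both models. The joint test of the 4 sections called 3 members against 1.16% of all regions, and 10 with the mouse as a block against 2.55%. Against the mean of the small intestine, the colon was higher at 5 members and lower at 0, where 1.79% of all regions were called and higher. With the mouse as a block 19 were higher, where 2.73% were. The 5 were the leading region of H60c (log2 difference 0.39, SE 0.09, adjusted p = 0.00388 in edgeR) and 4 regions of the stretch with log2 differences of 0.34 to 0.44. Among these were the regions on both sides of H60b, chr10:22260473-22270854 and chr10:22290736-22296186. Leaving out ConvR mouse 1, 3 or 5 or GermFree mouse 3 gave 3, 11, 1 and 9 colon calls. Leaving out ConvR mouse 1 or 2 or GermFree mouse 2 or 6 left 1 call in the joint test, and leaving out ConvR mouse 4 or 5 left 0.

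The leading region of H60c passed between sections and did not pass between models. It gave 22.4 ± 5.73 and 22.0 ± 3.31 CPM in the duodenum of GermFree and ConvR mice (SD, n = 7 and 5), where the colon gave means of 31.1 and 32.0 CPM. The leading regions of Raet1e, H60b and Ulbp1 passed in the colon contrast with the mouse as a block, at log2 differences of 0.24, 0.24 and 0.30 (adjusted p = 0.0137, 0.0157 and 0.0475 in edgeR), and not without it.

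The third view was by mouse. Summed over its 35 regions, the stretch gave 1429, 1308, 956, 783, 1400, 1181 and 973 CPM in GermFree mice 1 to 7. ConvR mice 1 to 5 gave 507, 557, 386, 532 and 449 CPM. The GermFree values spanned a wider range, and all lay above the ConvR values, with ratios of the means of 2.36 in the sums and 2.59, 2.04, 2.37 and 2.49 from duodenum to colon. In all 4 sections as well, all 7 GermFree mice lay above every ConvR mouse.

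In the sums the order of the mice largely held across regions. Among the 27 called regions of the stretch, GermFree mouse 4 was the lowest of its model in 24, and GermFree mouse 1 or 5 was the highest in 14 and 11. ConvR mouse 3 was the lowest of its model in 22 and ConvR mouse 2 the highest in 18. By section the order changed in part. Summed over the stretch in the colon, GermFree mouse 3 was the lowest with 1022 CPM, and GermFree mouse 4 gave 1128 CPM. In the jejunum the lowest ConvR mouse was mouse 5 with 445 CPM. The spread between mice of a model was wide at the stretch, with a median coefficient of variation of 22.6% in GermFree and 18.2% in ConvR mice over its 25 regions of at least 10 CPM. All regions of at least 10 CPM had medians of 8.95% and 9.34%. The 3 such regions of H60c and Ulbp1 had medians of 13.9% and 13.8%.

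GermFree mouse 4 and ConvR mouse 3 were also the lowest of their models at the leading regions of H60c and Ulbp1 in the sums. They had the lowest shares of their counts in the 4825 other autosomal regions of at least 5 kb, 19.5% where the other GermFree mice had 19.7% to 20.4%, and 19.4% where the other ConvR mice had 19.5% to 20.1%. The part of this in the order of the mice was not tested. Without GermFree mouse 4, 3 regions of H60c and Ulbp1 passed in the sums instead of 1, and without ConvR mouse 5 it was 2.

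**Figure D5:**
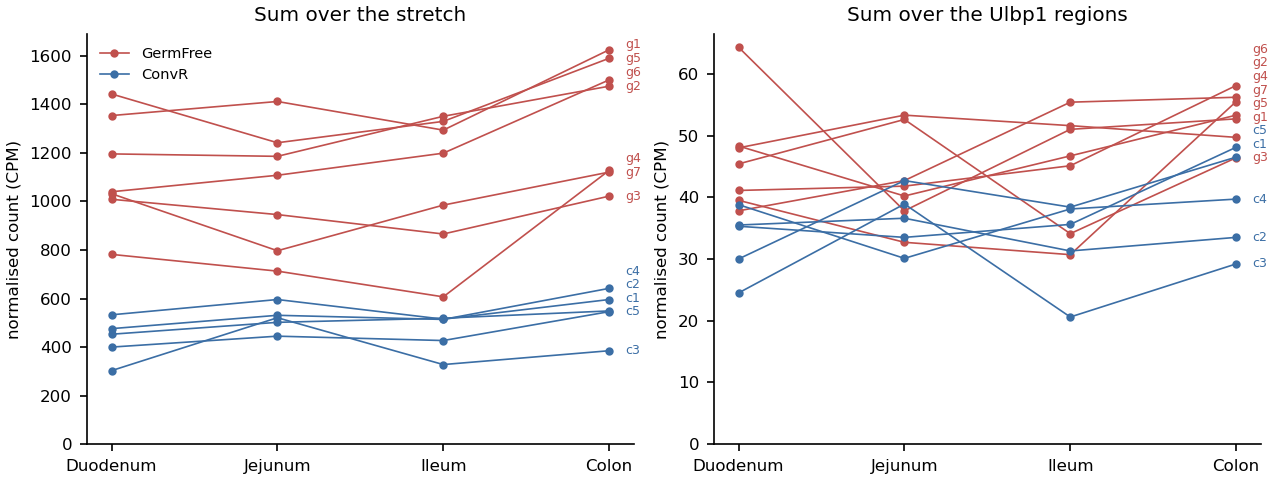
Normalised count (CPM) of each mouse in the 4 sections, summed over the 35 regions of the stretch (left) and over the 4 regions of Ulbp1 (right), with 1 line per mouse and labels g1 to g7 for GermFree and c1 to c5 for ConvR mice. On the left the lines of the models do not cross, with a lowest GermFree value of 607 and a highest ConvR value of 642 CPM in different sections. On the right they cross.

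Of the codes in the sample titles, 5 hold 1 mouse of each model. The remaining code holds GermFree mice 5 and 7 and no ConvR mouse, so these mice are in no pair. What a code marks is not stated. Within the codes, GermFree mice were higher at the leading regions of H60b, Raet1e and Raet1d in 5 of 5 pairs in the sums and in every section. Where the groups did not overlap, as at these regions in the sums, any pairing of the mice gives this count, so it adds no test. The log2 ratios within pairs were 0.97 to 2.24 at H60b, 0.68 to 1.59 at Raet1e and 0.70 to 1.64 at Raet1d in the sums. At H60c the GermFree mouse was higher in 2 of 5 pairs, with log2 ratios of -0.72 to 0.47. At the leading region of Ulbp1 it was higher in 5 of 5 pairs, but by 0.04 to 0.48.

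The likeness of other regions to the H60b region was measured by Pearson correlation of log2 CPM over the 12 mice, which mostly reflects the difference between the models. Outside the stretch, the highest were at Gm36470 (0.980), Slc37a3 (0.980), the neighbours Gm24676 and Klra11-ps (0.964), Klra4 (0.961) and Gm40597 (0.957). Klra4 belongs to the Ly49 receptor family of natural killer cells, and Slc37a3 encodes a membrane transporter. The leading regions of Raet1e and Raet1d reached 0.994 and 0.990, that of Ulbp1 0.709 and that of H60c 0.309. After the model means were subtracted, the highest values were at Srl (0.954), Map6 (0.953), Gm36063 (0.950), Oxr1 (0.936) and Gm36470 (0.934), against 0.963 at Raet1e and 0.921 at Raet1d. At Srl and Map6 the models differed by -0.06 and -0.08 on the log2 scale. All regions share the same 12 sums of libraries, and these correlations carry no test.

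Gm40597 lies near Ulbp1, and its region was looked at together with the other neighbours of Ulbp1 and H60c after the values had been seen. Within 100 kb of Ulbp1, 2 of 7 neighbouring regions passed. The region near Gm40597, chr10:7487632-7489715, lies 13991 bp from Ulbp1 and gave 16.8 ± 3.93 against 8.28 ± 1.14 CPM (SD, n = 7 and 5), a log2 difference of 1.04 (SE 0.12, adjusted p = 9.17e-08 in edgeR). The region chr10:7402795-7405000, in no annotated gene and 39873 bp away on the other side, gave 16.4 ± 2.85 against 8.33 ± 1.39 CPM and a log2 difference of 0.97 (SE 0.11, adjusted p = 3.50e-08 in edgeR). All 7 GermFree mice lay above every ConvR mouse at both. The regions of Ulbp1 lie between them with smaller differences of 0.28 to 0.53. Near H60c, 1 of 7 neighbours passed, chr10:3232222-3232990 over Gm6667, with a log2 difference of 0.61 (SE 0.15, adjusted p = 0.0289 in edgeR).

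The receptor side of the pathway gave no call. Klrk1 itself had no captured region within 5 kb. Hcst and Tyrobp, which encode the signalling adaptors DAP10 and DAP12, share a region with 4.84 ± 0.793 against 5.60 ± 0.575 CPM (log2 difference -0.21, adjusted p = 0.828 in edgeR). In the list of the receptor complex and its signalling, 17 of 20 genes had regions to test. In the sums 0 of 94 regions passed, against 0.475% of all regions called. At that share, 0 calls in this list or in the shorter lists and markers below says little about them. The smallest p was at Lck, a kinase of T cell signalling, with a log2 difference of 0.30 (SE 0.11, adjusted p = 0.497 in edgeR).

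Of the genes that control or shed the ligands, 0 of 40 regions passed in the sums, and the smallest p was at E2f1, a transcription factor of the cell cycle (-0.25, adjusted p = 0.434 in edgeR). Among MHC class I-like genes outside the ligands 0 of 12 passed, with the smallest p at Fcgrt, the neonatal Fc receptor (-0.20, adjusted p = 0.732 in edgeR). The cytotoxic effectors gave 0 of 18, with the smallest p at Ifng (-0.14, adjusted p = 0.847 in edgeR). The cytokines and factors of NKG2D-bearing cells gave 0 of 14, with the smallest p at Il18r1 (0.28, adjusted p = 0.767 in edgeR). In the order given, 4, 3, 2, 0 and 0 regions of these 5 lists had an unadjusted p under 0.05 in edgeR in the sums. Each list gave 0 calls in each section, and DESeq2 called 0 in the sums and in each section. Their median log2 differences in the sums ran from -0.03 to 0.04, near -0.001 over all regions.

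Markers of cell types were read the same way. The lists for epithelium, natural killer and T cells, B cells, muscle and stroma, and myeloid cells held 24, 12, 19, 20 and 12 tested regions in the sums, and 0 passed in any list or section, in edgeR or in DESeq2. An unadjusted p under 0.05 was found in edgeR at 1, 1, 2, 0 and 0 of them in the sums. Their median log2 differences in the sums were 0.03, -0.02, 0.01, 0.03 and -0.05. The smallest p among them was at Klrb1c, a natural killer marker (0.30, SE 0.09, adjusted p = 0.288 in edgeR). Captured DNA at these genes does not measure their expression, so the tissue label was not checked by it.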

How the data were processed

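MBD-seq of 48 libraries was analysed, 1 per mouse and section. Per the labels' protocols, DNA was sheared, captured with MethylMiner and sequenced as 100-base single reads. The tools named are cutadapt 1.4.2, Trim Galore 0.3.7, featureCounts and MACS2, with the mouse build mm10, per the submitters' processing notes. The aligner, and the treatment of duplicates and of reads with several places, were not given in the sources used here. The authors deposited whole-number counts for 95882 regions without normalisation, and a peak list with 1 score per region, the authors' own value, which was not used.

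Regions were assigned to genes by RefSeq GRCm38.p6 positions, and all listed genes matched by symbol. Exons were not used here. Counts were tested in edgeR 4.0.16 under R 4.3.3 (quasi-likelihood F-test with trended dispersion, TMM factors and the default filter), on sums over sections (12 mice), on each section (12 libraries) and over 8 groups of 48 libraries. Benjamini-Hochberg adjustment ran over all tested regions, with a threshold of 0.05. CPM are counts scaled to a TMM-adjusted library size. SE are the log2 difference over the root of F. They share the spread fitted over regions and can be too small where mice of a model differ widely, as at the stretch. Regions from all chromosomes were kept. On simulated counts of 20000 regions the sums recovered 100% of regions changed by 1.0 on the log2 scale and 66% of those changed by 0.5. The changed regions were drawn from those at or above the median count, and all regions were given the same spread. The members, lists and rules for naming were chosen with earlier results of these data known; for each gene the region with the highest mean count was named in full, with the 5 highest and 5 lowest regions of no listed gene, and the neighbours of Ulbp1 and H60c were added after their values were seen. From each list, genes with a region that passed were to be named, and otherwise that with the smallest p. Alternatives were DESeq2 1.42.0, other scalings, no count filter, blocks, autosomes only, all libraries in the fit of a section, and mice left out. No 2 libraries were identical. Libraries of the same mouse pair the section comparisons by their labels (median correlation of deviations 0.020 over 72 pairs). The main tests between sections left this pairing out. At the members it mattered, and with the mouse as a block the colon calls went from 5 to 19. The mouse numbers shared by the models name different mice. Python 3.11.15, pandas 2.3.3, NumPy 2.4.6 and Matplotlib 3.10.9 served for tables and figures.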

Additional observations from a re-analysis of the deposited data

Results flagged for a closer look

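At the leading region of Ulbp1 in the duodenum, GermFree mouse 5 gave 27.6 CPM, while the other GermFree mice gave 10.6 to 17.1 CPM. Its gap to the next mouse was 0.62 of the range of the group, above Dixon's critical value for 7 samples. The check was made on 60 groups of values, of which chance puts about 1 in 20 past this limit. The 4 regions of Ulbp1 summed gave 64.3 CPM in that library, the highest of the 7, and the same mouse gave 10.2 CPM at the leading region in the jejunum, the lowest of its model there.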

How the results depend on the processing

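All 28 members called in the sums kept their call and direction under each of the 19 alternatives, which were DESeq2, DESeq2 size factors, library totals, the replicate block by mouse number (28 calls), the block by title code, ConvR mice 1 and 3 left out, autosomes only and each mouse left out in turn. No member that passed changed direction. The default filter kept every region of the sums, so no fit without it was made there. Leaving out a mouse gave 28 to 31 calls in the sums, 1 to 3 of them at H60c and Ulbp1, 25 to 27 in the duodenum, 21 to 25 in the jejunum, 23 to 27 in the ileum and 25 to 27 in the colon. It gave 0 to 3 in the joint test of sections, 1 to 11 for the colon and 0 for the difference of models between sections. With the replicate block by mouse, 10 members differed between sections and 19 were higher in the colon, and without ConvR mice 1 and 3 the colon count was 8; the block changed no other count of members by over 1.5 times. DESeq2 left 18 calls in the jejunum and gave the leading region of Raet1d there a log2 difference of 0.92 (adjusted p = 0.0745). The causes were not tested. Values near 0 at H60c changed sign in several alternatives. Members with few counts, such as most of those after the gap, can hide differences. In simulated single sections 23% to 35% of regions changed by 0.5 on the log2 scale were recovered, but these regions held at least the median count. Recovery at members with few counts, or with a spread as wide as that of the stretch, was not simulated.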
